A study of Mus musculus with 12 samples.

Results

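The genes described here are those of MHC class II antigen presentation, namely H2-Aa, H2-Ab1, H2-Eb1, H2-DMa, H2-DMb1, Cd74 and Ciita, together with Cd83, Cd86 and Cd40 of the antigen-presenting cell surface. They are 10 genes, and every probe set on the array whose gene symbol was one of them was taken. Of the 10 genes, 9 had probe sets of their own, 20 in all, among the 18193 genes with a probe set of their own. H2-DMb1 was read only by 2 probe sets shared with its neighbour H2-DMb2, which are described separately. Liver RNA was measured on 12 Affymetrix Mouse Genome 430 2.0 arrays in a mouse model of fulminant hepatitis caused by concanavalin A (ConA), a plant lectin that activates T cells. The mice were male Balb/c, 8 to 10 weeks old, with whole liver taken, 3 arrays in each of 4 groups: a control group at 0 h, and 3 groups killed 1 h, 3 h or 6 h after an injection of 20 mg/kg ConA into the tail vein. By their labels the 0 h mice were untreated, whereas the methods give PBS to control mice. None of the later times had a control group, so ConA and time of day cannot be told apart.

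MHC class II molecules are pairs of an alpha and a beta chain that carry peptides from engulfed proteins to the cell surface, where CD4 T cells read them. B cells, dendritic cells and macrophages carry them at rest, and interferon gamma can bring them out on other cells, including endothelium. The invariant chain, made by Cd74, guides new class II molecules to the endosome, H2-DM exchanges the peptide there, and Ciita, the transactivator, switches the whole set on from a shared promoter module. In bulk liver, more cells of a type and more RNA per cell cannot be told apart, so the values below are levels per unit of liver RNA.

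That shared module holds an X box, bound by the RFX complex, and downstream of it a Y box, bound by NF-Y. It is shown for the members of the class II region whose RefSeq promoter, where one was given, held both. The promoters of H2-Ab1, Cd74, Ciita, Cd83, Cd86 and Cd40 were not analysed here. The letters searched were GNAAC for X, followed after 15 to 35 bases by TGATTGG for Y, within the 250 bases before each start and on either strand, and they were chosen after these sequences had been seen. The pair, with X and Y not overlapping, was in 159 of 32851 promoters (0.484%). Y, with or without X, was in 7.23% and X, with or without Y, in 79.6%. Below, capitals mark the X and the Y letters, and 20 bases are shown on each side. The sequences are from RefSeq, build GRCm38.p6, which is C57BL/6J and not Balb/c.
H2-Aa, chr17:34287847-34287924, minus strand: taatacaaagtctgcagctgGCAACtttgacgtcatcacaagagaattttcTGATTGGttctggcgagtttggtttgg
H2-Eb1, chr17:34305756-34305832, plus strand: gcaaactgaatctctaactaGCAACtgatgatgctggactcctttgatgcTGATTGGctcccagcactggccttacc
H2-DMb1, chr17:34153077-34153154, plus strand: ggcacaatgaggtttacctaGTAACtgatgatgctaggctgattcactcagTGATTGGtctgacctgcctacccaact

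In these promoters 25 or 26 bases lay between the X letters and the Y letters searched, which need not be the distance between the whole boxes. The X letters started 81 bases before the gene's start in H2-Aa, 91 in H2-Eb1 and 94 in H2-DMb1. The pair of letters was not in the windows before either start of H2-DMa or before H2-DMb2. A match of letters is a description of the sequence, and binding was not measured.

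Signals are linear intensities as deposited, without new scaling between arrays. A floor of 3.04, the 20th percentile of all values, replaced lower signals before log2 was taken, and 17.5 to 23.2% of the probe sets of an array were at it. The median signal of an array was 13.7 to 20.4. Changes are differences of group means of log2 signal with their SE from 1 limma fit over the 12 arrays, with p adjusted by Benjamini-Hochberg over 45037 probe sets and a threshold of 0.05. The median log2 change of all genes against 0 h was 0.08 (1 h), -0.21 (3 h) and 0.02 (6 h), so that a gene that moved with the median gene would lie slightly below its control level at 3 h. Values of a group are given in the order of arrays 1, 2 and 3. This number was not taken to pair arrays of different groups, and a fit with it as a block is given at the end.

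Against 0 h, Cd83 and Cd40 passed the threshold from 1 h, and Cd74 and Cd86 from 3 h, each on at least 1 probe set. On the signals as deposited, the other class II genes, except Ciita, passed at 6 h only. The count at 3 h changed with scaling. More member probe sets, not listed here, passed at 3 h after it, so that these first times hold for the unscaled signals. Whether members differ in timing was not tested. At 1 h against 0 h, 2 of the 20 probe sets rose, 1 each of Cd83 and Cd40, where 1.29% of all probe sets did. In 6 the 3 arrays lay above all controls (10.2% of all) and in 1 below (3.96% of all). At 3 h, 6 probe sets of 4 genes rose (Cd40, Cd83, Cd86 and Cd74), where 3.77% of all did, and 13 lay above the controls without overlap (7.28% of all). At 6 h, 12 probe sets rose, 60% of the 20 against 12% of all, and these belonged to 8 of the 9 genes. On 15 probe sets the 6 h arrays lay wholly above the controls, where 19.8% of all did. No member fell at any of these times, where 0.255% (1 h), 9.83% (3 h) and 8.37% (6 h) of all probe sets fell. The median change of the 20 probe sets was 0.32, then 0.65 and then 1.44 on the log2 scale. The exception at 6 h was Ciita. In the F test over all 3 times, 11 of the 20 passed (55%), from 8 of the 9 genes, where 28.1% of all probe sets passed.

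**Figure D1:**
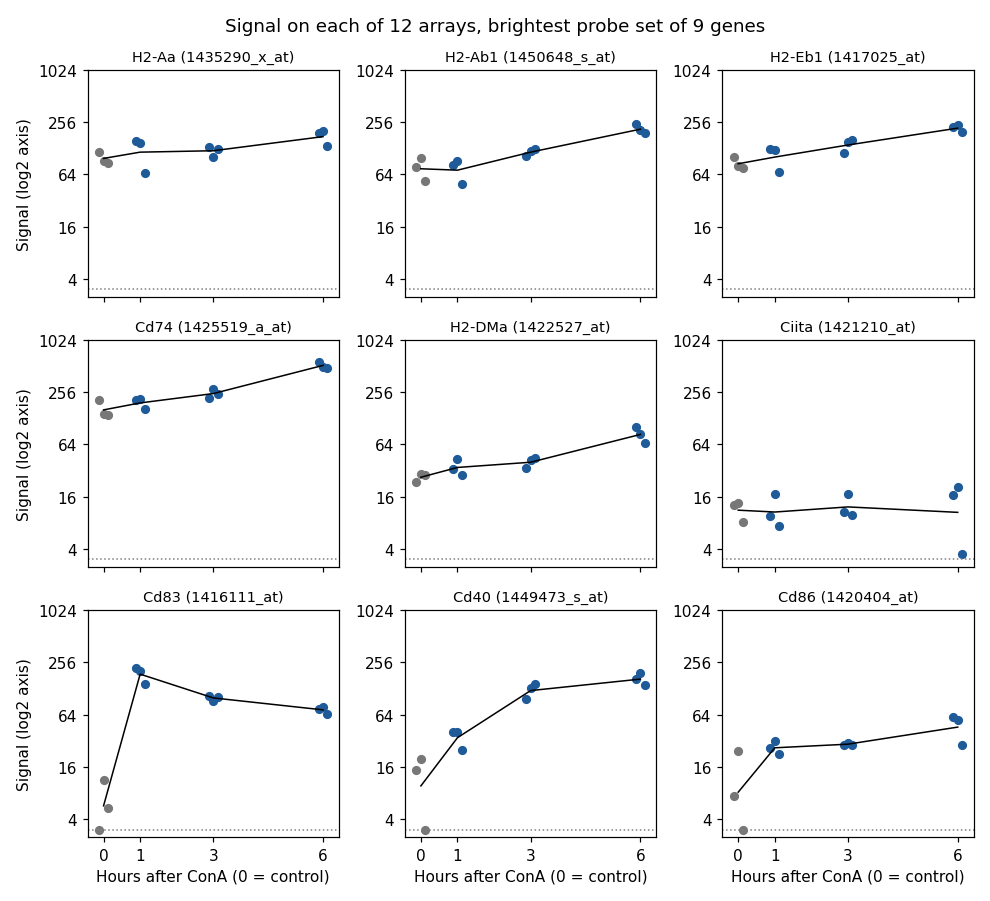
Signal on each array (log2 axis, 3 points per group, control in grey) against hours after ConA for the probe set with the highest mean of each of 9 genes; the line joins geometric group means and the dotted line is the floor of 3.04, at which lower values are drawn. The class II chains, Cd74 and H2-DMa had their highest group mean at 6 h, Cd83 had its highest at 1 h, and Ciita stayed low with overlapping groups.

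The split between rising and falling probe sets depended on how arrays were scaled, and so did the member counts at 3 h. As deposited, 1700 probe sets were higher and 4428 lower at 3 h against 0 h. After quantile normalization these were 2739 and 2652, and after median scaling 2537 and 2647. At 1 h the 579 higher and 115 lower became 467 and 193 after quantile normalization. At 6 h the 5415 higher and 3768 lower became 4872 and 5341 after quantile normalization and 4777 and 5057 after median scaling. Of the members, 11 in place of 6 were higher at 3 h after quantile normalization and 8 after median scaling. The count at 6 h, which leaves out the shared H2-DMb probe sets, stayed 12 under both. No member was lower than 0 h under either.

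The peptide-binding chains came first in the pathway's order of roles. H2-Aa and H2-Ab1 form the I-A molecule, and H2-Eb1 is the beta chain of I-E. The H2-Eb1 signal (probe set 1417025_at) was 102, 79.6 and 75.1 on the control arrays, then 125, 122, 68.1 (1 h), 113, 149, 161 (3 h) and 226, 235, 195 (6 h). Every array at 3 h and 6 h was above every control array, whereas the arrays at 1 h spanned them. The change at 6 h was 1.36 ± 0.25 (SE) on the log2 scale, 2.57-fold, with an adjusted p of 0.00399, and that at 3 h was 0.72 ± 0.25, which did not pass (adjusted p = 0.0913).

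H2-Ab1, the beta chain of I-A, had 3 probe sets. The signal of 1450648_s_at was 77.7, 98.2 and 53.7 at 0 h, then 82.8, 90.3, 49 (1 h), 104, 119, 124 (3 h) and 241, 205, 193 (6 h). That of 1451721_a_at was 39.4, 37 and 29.9 at 0 h, then 36.8, 48.1, 29.5 (1 h), 46.6, 45.6, 43 (3 h) and 85.4, 74.5, 62.2 (6 h). In both, the arrays at 1 h overlapped the controls, those at 3 h lay just above the controls and those at 6 h above all arrays before them. Array 2 at 1 h of the second probe set was also above every array at 3 h. Both rose at 6 h, by 1.51 ± 0.27 (adjusted p = 0.00353) and 1.06 ± 0.19 (adjusted p = 0.00374). The third, 1425477_x_at, had signals of 84.7, 57.1 and 54.1 at 6 h above 28.7, 23.6 and 6.82 at 0 h, and its change of 1.94 ± 0.61 did not pass (adjusted p = 0.0544).

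H2-Aa, the alpha chain of I-A, had 4 probe sets that gave smaller and less even changes. One of them, 1452431_s_at, was 96.6, 67.9 and 55.9 at 0 h, then 135, 95.1, 98.4 (1 h), 83.3, 75.3, 92.9 (3 h) and 169, 156, 108 (6 h). The arrays at 6 h were all above the controls, and the lowest of them lay inside the range at 1 h. It rose by 0.99 ± 0.24 at 6 h (adjusted p = 0.0182), and without control array 2, control array 3, or array 1 or 2 at 6 h it no longer passed, with adjusted p up to 0.0646. The probe set 1435290_x_at went from 117, 91.9 and 86.7 at 0 h to 193, 201 and 136 at 6 h, a change of 0.84 ± 0.32 (adjusted p = 0.103), and 1438858_x_at from 68.7, 31 and 35.7 to 191, 92.9 and 61.3, a change of 1.28 ± 0.45 (adjusted p = 0.077). The x_at ending marks probes that can match other transcripts too. An s_at probe set can also be shared between genes, as 1449580_s_at was between H2-DMb1 and H2-DMb2. Whether the other s_at probe sets of members match further transcripts was not tested. The fourth, 1443783_x_at, was at the floor on 2 of 3 arrays in each group and gave no usable level. These arrays were designed on reference sequence, and whether their probes match the Balb/c alleles of these highly variable genes was not tested.

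Cd74, the invariant chain, was read by 1425519_a_at. Its signal was 209, 142 and 138 at 0 h, then 206, 211, 164 (1 h), 221, 279, 243 (3 h) and 569, 503, 492 (6 h). The groups at 0 h and 1 h overlapped, and the groups at 3 h and 6 h each lay above all arrays before them. The rise at 6 h was 1.70 ± 0.18 on the log2 scale, 3.25-fold (adjusted p = 0.000211). The change at 3 h, 0.62 ± 0.18, was just past the threshold (adjusted p = 0.0483), and it was not past it when control array 2 (adjusted p = 0.15) or any of 9 other arrays was left out. Between 3 h and 6 h the signal rose by a further 1.08 ± 0.18 (adjusted p = 0.00453).

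H2-DM loads peptides by removing the invariant chain fragment from the groove, and it consists of an alpha chain from H2-DMa and a beta chain. The H2-DMa signal (1422527_at) was 23.5, 29.2 and 28.2 at 0 h, then 33.5, 43.7, 28.8 (1 h), 34.1, 42.2, 44.3 (3 h) and 103, 83.7, 67.4 (6 h). The lowest array at 6 h was above the highest of every other group. It rose by 1.64 ± 0.20 at 6 h, 3.11-fold (adjusted p = 0.000508), and by 1.07 ± 0.20 from 3 h to 6 h (adjusted p = 0.00809). A second H2-DMa probe set, 1459872_x_at, did not follow it: its signals at 6 h were 3.72, 20.3 and 11.2 against 11.8, 13.5 and 10.5 at 0 h, a change of -0.33 ± 0.52 (adjusted p = 0.753).

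The beta chain could not be assigned to H2-DMb1 alone. The shared probe set 1449580_s_at was 3.22, 11.6 and 12.7 at 0 h, then 22, 7.67, 4.53 (1 h), 16.9, 20.7, 21.6 (3 h) and 35.6, 35.7, 26.5 (6 h). All arrays at 3 h and 6 h were above the controls, and of those at 1 h array 1 was above them and the others inside their range. The change at 6 h was 2.05 ± 0.63 (adjusted p = 0.048), and it fell short of the threshold without control array 1 (1.41, adjusted p = 0.134), control array 2, array 2 at 1 h, or any array at 3 h or 6 h. It also fell short after quantile normalization (adjusted p = 0.0559) and median scaling (adjusted p = 0.0516). The other shared probe set, 1418638_at, had signals of 15.6, 19.3 and 8.14 at 6 h that overlapped 13.5, 7.28 and 7.58 at 0 h, and its change of 0.57 ± 0.48 did not pass (adjusted p = 0.491).

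**Figure D2:**
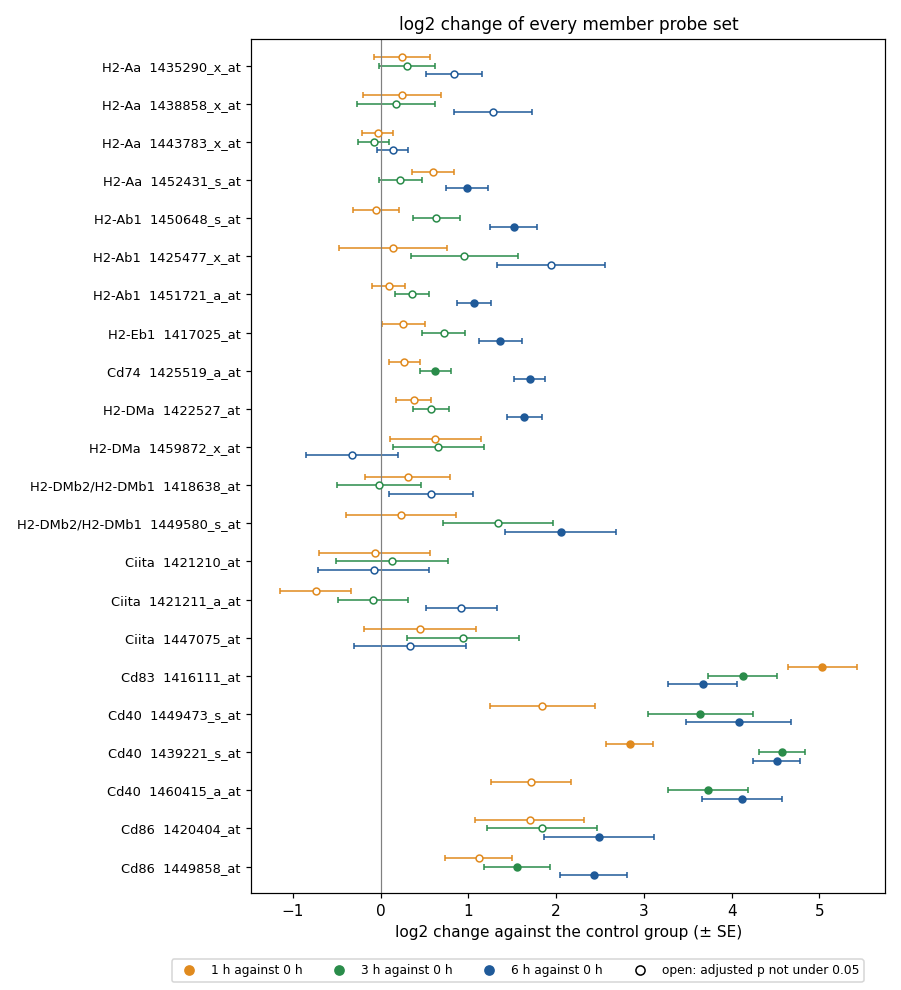
Log2 change ± SE of the 20 member probe sets and the 2 shared H2-DMb probe sets against 0 h, coloured by time, filled where the adjusted p was under 0.05. On the signals as deposited, changes of Cd83 and Cd40 passed at all 3 times for at least 1 probe set. Those of the class II chains passed only at 6 h, and none of Ciita passed.

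Ciita did not pass in any comparison with 0 h. The probe set 1421210_at was 12.9, 13.5 and 8.1 at 0 h, then 9.7, 17.2, 7.3 (1 h), 10.8, 17.3, 9.79 (3 h) and 16.6, 20.6, 3.47 (6 h). The 4 groups overlapped, and its change at 6 h was -0.082 ± 0.63 (adjusted p = 0.992). The probe set 1421211_a_at was 4.64, 6.75 and 6.39 at 0 h, then 4.6, 2.77, 2.11 (1 h), 5.32, 1.61, 10.3 (3 h) and 14.4, 10.1, 9.21 (6 h). Its 3 arrays at 6 h were above all controls, with a change of 0.92 ± 0.40 that did not pass (adjusted p = 0.16). Against 1 h, where 2 of 3 arrays were at the floor, it was higher at 6 h by 1.66 ± 0.40 (adjusted p = 0.0209), and not past the threshold without array 2 or 3 at 1 h or array 1 at 6 h, with adjusted p up to 0.0729. The third, 1447075_at, was at the floor on 2 of the 3 arrays at 0 h and at 6 h. The first of these probe sets was above the floor on every array, and the other two had arrays at it. A difference of Ciita from 0 h was not detectable at this spread between arrays.

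Cd83 marks mature dendritic cells and also B cells and activated T cells. The protein keeps class II and Cd86 on the surface by opposing their removal by the ubiquitin ligase Marchf1. Its probe set 1416111_at was 1.87, 11.2 and 5.42 at 0 h, then 219, 205, 145 (1 h), 105, 92.7, 101 (3 h) and 73.4, 79.1, 65.5 (6 h). No group overlapped another, with the highest arrays at 1 h, then 3 h, then 6 h, and control array 1 was at the floor. With that control array at the floor, the size of the changes against 0 h depends on the floor. The rise was 5.04 ± 0.39 on the log2 scale at 1 h, 32.8-fold (adjusted p = 0.000263), and 4.58 to 5.52 with 1 array left out. It was 4.13 ± 0.39 at 3 h and 3.67 ± 0.39 at 6 h, with adjusted p of 0.000235 and 0.000233. From 1 h to 6 h it fell by 1.37 ± 0.39 in log2 units (adjusted p = 0.041), a contrast added after the values were seen, and the call was lost without control array 3 and without any 1 of the 9 arrays after ConA, with adjusted p up to 0.117. The step from 1 h to 3 h, -0.91 ± 0.39, did not pass (adjusted p = 0.155).

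Cd40 is the receptor through which activated T cells license antigen-presenting cells, and its 3 probe sets moved alike. The signal of 1439221_s_at was 1.62, 4.25 and 6.96 at 0 h, then 32.7, 31.2, 32.1 (1 h), 94.1, 115, 113 (3 h) and 123, 101, 85.9 (6 h). That of 1460415_a_at was 11.1, 2.64 and 12.3 at 0 h, then 21.9, 30.4, 21.9 (1 h), 89.6, 98.9, 110 (3 h) and 149, 132, 110 (6 h). That of 1449473_s_at was 14.9, 19.9 and 1.73 at 0 h, then 40.6, 40.5, 25.3 (1 h), 96.2, 129, 142 (3 h) and 165, 190, 140 (6 h). In all 3 the arrays at 1 h were above the controls and those at 3 h above those at 1 h, and each had 1 control array at the floor. At 1 h only 1439221_s_at passed, with 2.84 ± 0.26 (adjusted p = 0.000845), beside 1.71 ± 0.46 (adjusted p = 0.137) and 1.84 ± 0.60 (adjusted p = 0.239) for the other two. At 6 h the 3 probe sets rose by 4.51 ± 0.26, 4.11 ± 0.46 and 4.08 ± 0.60, which is 22.8-, 17.3- and 16.9-fold (adjusted p = 1.05e-05, 0.000291 and 0.0013). Without the control array at the floor, the last 2 of these folds were smaller and still passed: 1460415_a_at rose 11.1-fold without control array 2 and 1449473_s_at 9.49-fold without control array 3, and at 3 h the same omissions gave 3.08 and 2.81 in place of 3.73 and 3.64 on the log2 scale.

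Cd86 (B7-2) binds CD28 on T cells to give the second signal beside the peptide. Its probe set 1449858_at was 12, 10.6 and 4.57 at 0 h, then 14.3, 20.2, 20.6 (1 h), 22.2, 32, 20.6 (3 h) and 54.8, 32, 51.5 (6 h). Each group after ConA was above the controls on every array. At 1 h the change of 1.12 ± 0.38 did not pass (adjusted p = 0.265). The rise was 1.55 ± 0.38 by 3 h (adjusted p = 0.0268) and 5.38-fold, 2.43 ± 0.38, by 6 h (adjusted p = 0.00184). The change at 3 h no longer passed without any 1 of the 3 arrays at 3 h, with adjusted p up to 0.0881. The other probe set, 1420404_at, was 7.47, 24.1 and 1.94 at 0 h and 60.3, 55.4 and 28.9 at 6 h. Its controls were spread widely, with array 3 at the floor, so that the size of its change depends on the floor. It rose by 2.49 ± 0.62 at 6 h (adjusted p = 0.0205). This did not pass without control array 1 or array 1 or 2 at 6 h, with adjusted p up to 0.0678. Its change was 3.27 without control array 2 and 1.77 without control array 3, and it passed in both cases.

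Between successive times few members passed. From 1 h to 3 h, 2 of the 20 probe sets rose, where 2.09% of all did and 12.8% fell. Without overlap 7 lay above (4.43% of all) and 2 below (27.5% of all). Both that rose were Cd40, by 1.74 ± 0.26 (1439221_s_at, adjusted p = 0.00396) and 2.02 ± 0.46 (1460415_a_at, adjusted p = 0.02). From 3 h to 6 h, 3 probe sets rose, where 14.3% of all did, a share near that of the members (15%), and 9 lay above without overlap (27.4% of all). None fell, where 2.42% of all did. They were H2-DMa, Cd74 and H2-Ab1 (1451721_a_at, 0.70 ± 0.19, adjusted p = 0.0335), and the count was 1 after quantile normalization. After that normalization 2741 of all probe sets were higher and 2825 lower in this step, in place of 6445 and 1092, and from 1 h to 3 h 1773 and 1555 in place of 942 and 5782. From 1 h to 6 h, a contrast chosen after the values were seen, 10 of the 20 rose and 1 fell, where 8.02% and 9.08% of all did. Whether the time course of one member differs from that of another was not tested.

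Of 7 lists of pathway genes, 48 of 50 genes were measured, each at the probe set with its highest mean. Against 0 h, 4 of them rose by 1 h, 8 by 3 h and 21 by 6 h, whereas 0, 1 and 0 fell. Of all genes, 1.45%, 4.76% and 14.4% rose and 0.148%, 12.9% and 11.8% fell at these times. At an unadjusted p under 0.05, 2 fell at 6 h. The median change of the 48 was 0.15, 0.12 and 0.53. The count at 6 h was 13 without array 2 of that group, and that at 3 h was 5 without array 3 of that group.

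Of the interferon gamma axis 2, 5 and 7 of its 8 measured genes were higher at the successive times. Ifng, the cytokine, was listed at 0.163, 4.83 and 0.982 at 0 h, then 27.7, 63, 30.6 (1 h), 81.5, 68.5, 117 (3 h) and 139, 74.2, 76.4 (6 h). Irf1, a transcription factor induced by interferon gamma that acts on the Ciita promoter, was 270, 293 and 242 at 0 h, then 2420, 2919, 2079 (1 h), 3871, 3560, 3647 (3 h) and 2291, 1731, 1752 (6 h). Both were higher on every array after ConA than on any control array, Ifng by 3.41 ± 0.38, 4.61 ± 0.38 and 4.70 ± 0.38 and Irf1 by 3.19 ± 0.15, 3.79 ± 0.15 and 2.83 ± 0.15, in order of time. With 2 control arrays of Ifng at the floor, the size of its changes depends on the floor, and Socs1 had 1 such control array. Socs1, the feedback inhibitor of Jak kinases, rose by 6.01 ± 0.45 at 3 h and 5.96 ± 0.45 at 6 h, and its change at 1 h was 2.19 ± 0.45 (adjusted p = 0.0549). Jak2, a kinase of the receptor, rose by 1.11 ± 0.13 at 3 h and 1.08 ± 0.13 at 6 h. Jak1 rose by 0.39 ± 0.10 and 0.55 ± 0.10 at those times, and the receptor chains Ifngr1 and Ifngr2 by 0.61 ± 0.19 and 0.55 ± 0.14 at 6 h.

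The promoter factors of class II moved less. Of 9, 5 rose at 6 h, led by Nfyb, a subunit of the Y box factor, with 1.30 ± 0.16 (adjusted p = 0.000446). Rfx5, the DNA-binding subunit at the X box, rose by 1.01 ± 0.27 by 3 h (adjusted p = 0.0408) and was 0.91 ± 0.27 above 0 h at the last time (adjusted p = 0.0431). Rfxank, its partner, was 51.1, 66.7 and 38.6 at 0 h, then 72.3, 73, 50.3 (1 h), 16.1, 18.6, 14 (3 h) and 58.4, 50.4, 74.3 (6 h). It was thus low on all 3 arrays at 3 h and fell there by 1.66 ± 0.24 in log2 (adjusted p = 0.00234), and it was the single pathway gene that fell. Rfxap, the third RFX subunit, rose by 0.55 ± 0.14, Nfya by 0.42 ± 0.11 and the coactivator Crebbp by 0.47 ± 0.12 at 6 h.

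Of the other class II genes 2 of 5 rose at 6 h. H2-Ea, the alpha partner of H2-Eb1, was 140, 101 and 81.7 at 0 h and 233, 241 and 174 at 6 h, a rise of 1.03 ± 0.24 (adjusted p = 0.0141). H2-DMb2, on a probe set of its own, rose by 1.44 ± 0.36 (adjusted p = 0.0191). Of 8 genes of peptide processing, 1 rose at 6 h, where 14.4% of all genes did. It was Lgmn, an endosomal protease that cuts antigen and invariant chain, by 0.90 ± 0.18 (adjusted p = 0.00708). The cathepsins of the list did not pass at any time. Marchf1 and Marchf8, which remove class II and Cd86 from the surface, did not pass either.

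**Figure D3:**
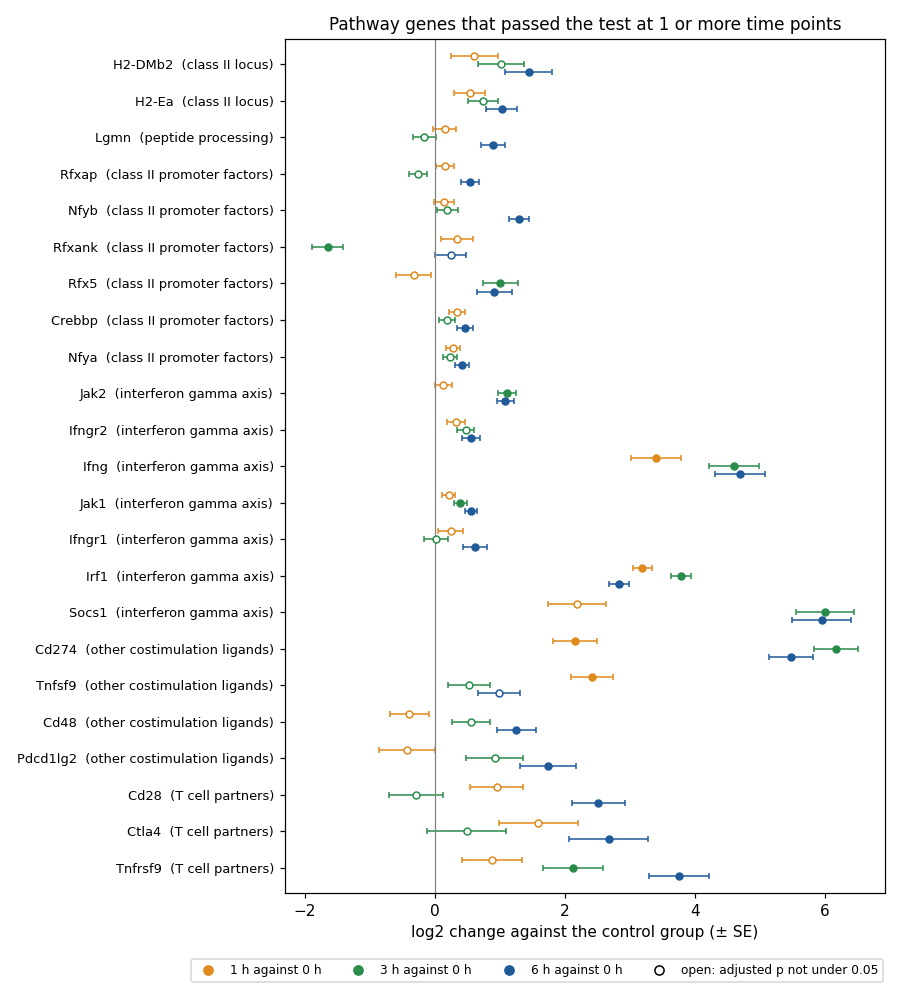
Log2 change ± SE against 0 h, coloured by time, of the pathway genes that passed at 1 or more times, 1 probe set per gene, with the list in brackets and filled points where the adjusted p was under 0.05. Socs1 and Cd274 reached changes near 6 at 3 h, and Rfxank at 3 h was the point that passed below 0.

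Among 8 other ligands for T cells, 2 rose at 1 h, 1 at 3 h and 3 at 6 h. Cd274 (PD-L1), an inhibitory ligand, was 8.88, 5.66 and 14.5 at 0 h, then 53.6, 41.1, 29.1 (1 h), 684, 671, 607 (3 h) and 508, 374, 344 (6 h). It was above the controls on every array, with rises of 2.15 ± 0.34, 6.18 ± 0.34 and 5.48 ± 0.34. Tnfsf9 (4-1BB ligand) was at the floor on all 3 control arrays and 14.1, 19.4 and 15.9 at 1 h (adjusted p = 0.00675), a change whose size depends on the floor. Pdcd1lg2 (PD-L2) rose by 1.74 ± 0.44 and Cd48 by 1.26 ± 0.30 at 6 h. Cd80 (B7-1), the other ligand of CD28, was 17.4, 13.9 and 20.6 at 0 h and 14.8, 16.2 and 15 at 6 h, a change of -0.15 ± 0.29 (adjusted p = 0.803).

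Of 8 partner molecules on T cells, 1 rose at 3 h and 3 at 6 h. Cd28, the receptor for Cd86, was 7.26, 6.96 and 3.8 at 0 h and 32.7, 27.2 and 40.5 at 6 h (2.52 ± 0.41, adjusted p = 0.00247). Ctla4, its inhibitory counterpart, was at the floor on all control arrays and 15.5, 28.6 and 16.5 at 6 h (adjusted p = 0.0128). Tnfrsf9 (4-1BB), an activation receptor, rose by 2.13 ± 0.46 at 3 h and 3.76 ± 0.46 at 6 h. Cd40lg, the ligand of Cd40, had a change of 0.21 ± 0.45 at 6 h that did not pass (adjusted p = 0.828).

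Markers of the cells that carry class II at rest moved unevenly beside these rises. At 6 h 14.4% of all genes rose and 11.8% fell, and the marker counts here and below stand beside those shares. Of 11 measured B cell markers, 1 rose (Fcer2a, 1.58 ± 0.35) and 1 fell (Bank1, by 1.32 ± 0.24 on the log2 scale) at 6 h, with a median of 0.87, and Cd79a, Cd79b and Ms4a1 did not pass. Their summed signal was 278 to 389 at 0 h, then 234 to 273 (1 h), 249 to 331 (3 h) and 370 to 498 (6 h). Of 10 dendritic cell markers, 2 rose at 6 h and 0 fell. Batf3 rose by 2.56 ± 0.36, and Ccr7 was at the floor on all control arrays and 7.15, 3.71 and 10 at 6 h. Their sum was 93.2 to 106 at 0 h, then 121 to 178 (1 h), 167 to 191 (3 h) and 181 to 241 (6 h), with 1 marker at the floor in all arrays at 0 h and 1 at 6 h. The dendritic sum at 6 h lay above that at 0 h, and the B cell sums overlapped. Without Batf3, a choice made after the values were seen, the other 9 dendritic markers summed to 80.2 to 87.6 at 0 h, then 94.2 to 133 (1 h), 71.3 to 94.9 (3 h) and 90.3 to 137 (6 h). Their part in the rise of the class II genes was not tested.

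Of 11 markers of Kupffer cells, the resident macrophages of liver, 1 rose and 3 fell at 6 h. Marco was at the floor on all control arrays and 65.5, 35.7 and 30.6 at 6 h, whereas Cd163 went from 116, 117 and 97.1 to 8.18, 9.79 and 7.97. The falls were 3.67 ± 0.14 for Cd163, 1.64 ± 0.18 for Vsig4 and 1.40 ± 0.13 for Clec4f on the log2 scale. The summed signal of the list was 1898 to 2553 at 0 h, then 2426 to 2991 (1 h), 1570 to 1861 (3 h) and 1565 to 2058 (6 h), with 1 marker at the floor in all control arrays and none in all arrays at 6 h. The sums at 0 h and 6 h overlapped, and 7 of the 11 markers passed in neither direction at 6 h. The part of these cells in the rise of the class II genes was not tested.

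Of 8 monocyte markers, 5 rose and 2 fell at 6 h, the sum going from 1175 to 1531 at 0 h to 1496 to 1695 at 6 h. Chil3 was at the floor on all control arrays and 25.9, 50.1 and 70.1 at 6 h, and Cx3cr1 fell by 2.74 ± 0.59 on the log2 scale. Of 9 sinusoidal endothelial markers, 2 rose, with Lyve1 the larger at 1.23 ± 0.34, and 4 fell, with Kdr the lowest at -2.30 ± 0.24. Their sum was 1299 to 2899 at 0 h and 1709 to 1831 at 6 h, and its lowest value was that of control array 3, where Kdr was 104 beside 193 and 216 on the other control arrays. Without control array 3, 11 member probe sets rose at 6 h, 5 at 3 h and 2 at 1 h. Counts over all probe sets are not given for that fit, so these 3 counts are not read as results about the members. All 6 measured neutrophil markers rose, up to 5.56 ± 0.23 for S100a8, and their sum went from 71.5 to 124 at 0 h to 1568 to 2470 at 6 h. Of 7 T cell markers 3 rose, led by Cd2 with 2.10 ± 0.35, and their sum went from 58.9 to 73.7 to 142 to 172. The hepatocyte markers that define the tissue had a sum of 67224 to 74490 at 0 h and 75087 to 79139 at 6 h, and 2 of 8 rose, Fgb the most with 0.76 ± 0.09. The part of each of these cell types in the member changes was not tested.

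**Figure D4:**
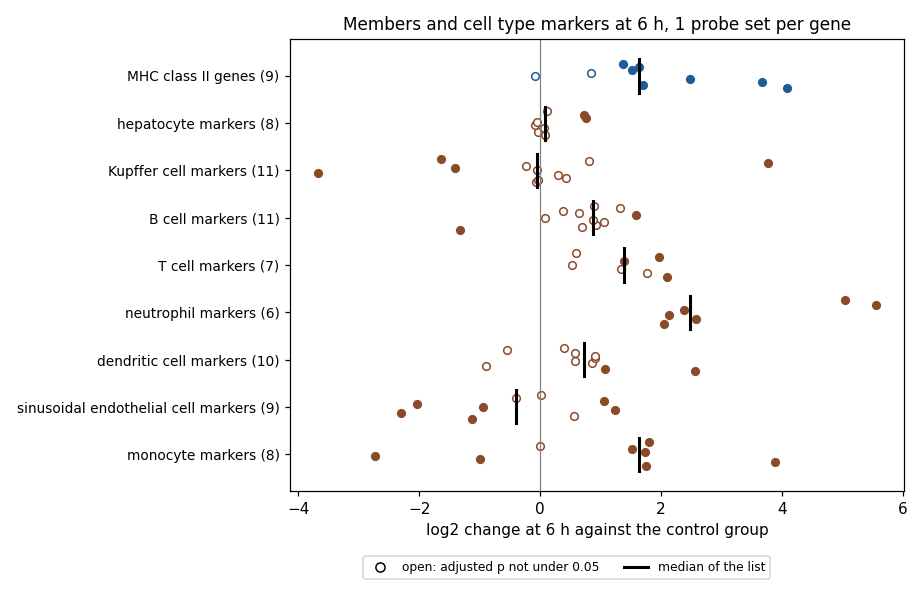
Log2 change at 6 h against 0 h of the 9 member genes (blue, top row) and of the marker genes of 8 cell types (brown), 1 probe set per gene, filled where the adjusted p was under 0.05, with the list's median as a black bar. Members and neutrophil markers lay mostly above 0. The medians of monocyte (1.63), T cell (1.38), B cell (0.87) and dendritic cell (0.72) markers were above 0 too, and that of hepatocyte markers was 0.08. Kupffer cell and sinusoidal endothelial markers lay on both sides of 0, with medians of -0.06 and -0.40.

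Genes whose signals followed the members most closely over the 12 arrays were taken among 9089 genes brighter than the median gene. Nearest to Cd74 were Ms4a4d (Pearson's r = 0.977), Rbm12 (0.975) and Agfg1 (0.974). Nearest to Cd83 were Ier3 (0.968), Junb (0.965) and Tnfaip3 (0.963), which are early response genes. For Cd86 they were Hivep3 (0.927), Pvr (0.923) and Casp1 (0.921), and for Ciita the best was lower, Nr2c1 (0.806). These values describe 12 arrays that share the 4 time groups.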

How the data were processed

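The deposited table held linear signal intensity per probe set, made by the authors from 12 arrays, 3 per group. The submitters' processing notes name MAS5 5.0, whereas the methods name RMA. The distributions differed between arrays, and the intensities were used without new scaling. Values were floored at 3.04 and put on a log2 scale, and 64 control probes were left out. Groups came from the sample labels, and RNA was extracted from each mouse. Symbols of 34741 probes were updated through the Entrez ID and 204 were kept, while 932 had several symbols and 9160 none. In R 4.3.3, limma 3.58.1 fitted 4 group means over 12 arrays (lmFit, eBayes), tested on simulated data. The number of arrays limits the precision. Members and lists were chosen with earlier results of these data known. Every member probe set is named, as are pathway genes past the threshold, and of the marker lists the defining markers and the largest and smallest change at 6 h. Named besides these, after their values were seen, are Cd80, Cd40lg and the members of short counts. Replicate numbers were not taken to pair arrays. Alternatives were quantile and median scaling, a pseudocount of 1, a floor at the 10th percentile, brighter probes, an intensity trend, a replicate block, only the groups compared, 1 probe per gene, a change of at least 2-fold, unadjusted p and leaving out each array.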

Additional observations from a re-analysis of the deposited data

Results flagged for a closer look

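In 5 instances the effect at one time differed from that at the time before it, by the test of the difference between the 2 times. From 3 h to 6 h these were 3 of the 20 member probe sets, 15%, near the 14.3% of all probe sets that rose. From 1 h to 3 h they were 2, 10%, where 2.09% of all rose. From 3 h to 6 h the log2 level rose by 1.08 for Cd74, by 1.07 for H2-DMa (1422527_at) and by 0.70 for H2-Ab1 (1451721_a_at). From 1 h to 3 h it rose by 1.74 and 2.02 for the Cd40 probe sets 1439221_s_at and 1460415_a_at. The median change of all genes was 0.24 from 3 h to 6 h and -0.31 from 1 h to 3 h. After quantile normalization the step of H2-DMa had an adjusted p of 0.0654. That of H2-Ab1 was not past the threshold in 10 of its alternatives, among them both scalings and leaving out any array at 3 h or array 1 or 2 at 6 h, with adjusted p up to 0.309. That of Cd40 1460415_a_at was not past it without array 1 at 1 h or array 2 or 3 at 3 h, with adjusted p up to 0.0677.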

How the results depend on the processing

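Leaving out each array in turn gave 1 to 3 member probe sets higher at 3 h than at 1 h and 0 to 1 lower, 2 to 5 higher at 6 h than at 3 h (5 without array 3 at 1 h), 2 to 4 higher at 1 h than at 0 h (4 without control array 2), 7 to 11 higher and 0 to 1 lower at 6 h than at 1 h, and, of pathway genes, 5 to 10 higher and 1 to 2 lower at 3 h and 13 to 20 higher and 0 to 1 lower at 6 h. The change at 6 h, called for none of these, turned sign between -0.56 and 0.72 for Ciita 1421210_at, -0.20 and 0.60 for Ciita 1447075_at, -0.88 and 0.35 for H2-DMa 1459872_x_at and -0.092 and 0.25 for H2-Aa 1443783_x_at. Counts over all probe sets are not given for fits without 1 array, so the counts from them are not read as results about the members.

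Quantile normalization gave 11 members higher at 3 h, 4 from 1 h to 3 h and 1 from 3 h to 6 h, with 2 pathway genes lower at 3 h and 2 at 6 h (2 at 6 h with median scaling). A pseudocount of 1 or the lower floor gave 0 members lower from 1 h to 6 h. With the replicate block 0 were lower too, where 4087 of 45037 probe sets were, and 5 were higher from 3 h to 6 h, where 6143 were. It ended the calls of Cd74 at 3 h (adjusted p = 0.0523), of Cd83 (0.0539) and Cd86 1449858_at (0.0734) from 1 h to 6 h and of H2-DMb 1449580_s_at at 6 h (0.0894), and H2-Ab1 1425477_x_at (0.0204) and H2-Aa 1438858_x_at (0.0488) passed at 6 h. The labels state no pairing by replicate number. Residual correlations were -0.011 to 0.038 over 18 pairs with the same number and -0.036 to 0.029 over 36 others. Of the 12 arrays, 8 correlated best with an array of their own number in another group. Whether the number links arrays was not tested. Brighter probes gave 5 members higher from 3 h to 6 h and 2 and 1 pathway genes lower at 3 h and 6 h, and the intensity trend 2 lower at 3 h. With only the groups compared, 0 members were higher at 1 h (Cd83, adjusted p = 0.0503), 5 higher and 1 lower from 3 h to 6 h, with 2 pathway genes higher at 1 h, 2 lower at 3 h and 1 at 6 h. With 1 probe per gene 1, 3 and 7 of 9 genes were higher at the 3 times, 0 from 1 h to 3 h and 5 from 1 h to 6 h, with 2 pathway genes lower at 3 h. A change of at least 2-fold left 13 pathway genes at 6 h. Unadjusted, 7 and 10 members were higher at 1 h and 3 h, 4 higher and 1 lower from 1 h to 3 h and 9 higher from 3 h to 6 h, with 11 pathway genes higher at 1 h and 4 and 2 lower at 3 h and 6 h. Counts over all probe sets are given only for the main fit, both scalings and the replicate block. The other counts are given here without such a background and are not read as results about the members. Of 1025 values of single probe sets, 908 kept their direction and their side of the threshold. The cause of the other shifts was not tested, and the spread between arrays limits what can be seen of Ciita.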
